A study of Homo sapiens with 8 samples.

Results

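The genes described here encode the factors that start and carry out protein synthesis: the eukaryotic initiation factors (gene symbols beginning with EIF1 to EIF6) and elongation factors (symbols beginning with EEF). Members were taken from the array's annotation by these symbols, from probesets that carried a single gene symbol. The EIF2AK kinases and pseudogenes were left out, and each gene was represented by its brightest probeset. The rule itself uses no measured difference, although the family was picked with earlier results of these data known. There were 58 genes of the 18417 genes with such a probeset. They lay on 66 of the 19460 probesets with 1 symbol. Of the 58, 50 were placed in groups named after initiation or elongation factors. These 50 include direct binding partners of eIF4E and the helicase EIF4A3, which belongs to the exon junction complex. The other 8 were taken in by the symbol rule and are enzymes that modify elongation factors (EEF1AKMT1, EEF1AKMT2, EEF1AKMT3, EEF2K, EEF2KMT), the selenocysteine elongation factor gene EEFSEC, EIF1AD and the long noncoding RNA EIF3J-DT. A further 7 symbols, among them EIF4A1, EIF5A and EIF3C, were carried only by probesets with several symbols and are named without values.

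Translation begins when eIF2 carries the initiator methionyl-tRNA to the small ribosomal subunit, where eIF1, eIF1A, eIF3 and eIF5 are bound. The cap of the mRNA is recognized by eIF4E, which together with the scaffold eIF4G and the helicase eIF4A recruits that subunit. eIF5B then joins the large subunit, and eEF1A and eEF2 drive the delivery of aminoacyl-tRNA and the movement of the ribosome along the mRNA. In vertebrates, many mRNAs of this machinery begin with a cytosine followed by a run of pyrimidines, known as a 5′ terminal oligopyrimidine tract, which places their translation under the control of mTOR and LARP1.

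The study asked how FGF19 altered the response of gene expression to TNFα in DU145, a human prostate cancer cell line that had been held in serum-free medium since the day before. RNA of 4 groups was measured on Affymetrix Human Gene ST arrays, with 2 arrays in each group that the labels call biological replicates. The FGF19 + TNFα cells were given 50 ng/ml FGF19 and 100 µg/ml heparin 10 min ahead of 50 ng/ml TNFα, which then stayed on for 90 min. The FGF19 cells received the same FGF19 and heparin for 100 min, the TNFα cells the same TNFα for 90 min, and the Mock cells none of these, all according to the labels; the paper's methods state lower concentrations of heparin and of TNFα. FGF19 is a ligand of the receptor FGFR4 and TNFα is an inflammatory cytokine. Heparin was named only for the groups given FGF19, so the effects of FGF19 and of heparin cannot be told apart, and "with FGF19" below means with both. Nothing in the labels says that the replicates were separate cultures, and p-values therefore measure the spread between these arrays.

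The values are PLIER signals, a linear measure of probe brightness that the authors deposited for 33297 probesets. Array medians of these signals ranged from 99.5 to 106.6. The 20th percentile was 34.6 to 36.6 on the 4 arrays given FGF19, against 30.7 to 31.6 on the 4 arrays without it, so that the dim end of the scale was brighter with FGF19; its part in the results for the translation factor genes was not tested. NFKBIA, TNFAIP3, CXCL8 and ICAM1, 4 known TNFα targets, were each higher in both comparisons of TNFα. Of 5 known FGF target genes, ETV5 was higher in both comparisons of FGF19 and SPRY4 in that against Mock, whereas DUSP6 was lower in FGF19 + TNFα against TNFα and SPRY2 and EGR1 passed the test in neither. The summed signal of 5 epithelial marker genes was 6784 to 6947 with FGF19 + TNFα and 6437 to 7118 with FGF19, against 8663 to 8734 with TNFα and 9310.2 to 9689 in Mock, with KRT8 and KRT19 lower in both comparisons of FGF19, CDH1 higher in FGF19 + TNFα against TNFα, and KRT18 and EPCAM without a call. The 3 leukocyte markers measured, of 4 listed, summed to 155 to 172 with FGF19 and 138 to 155 without it, with CD3E higher in both comparisons, and the 3 endothelial markers to 459 to 511 with FGF19 and 417 to 451 without it, with VWF higher in FGF19 + TNFα against TNFα. The 4 fibroblast markers overlapped, at 227 to 267 with FGF19 and 227 to 235 without it, with no call. The part of these markers in the results was not tested. KLK3 and KLK2, markers of androgen-responsive prostate cells, were dim on all arrays, at 37.4 to 79.4.

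As a group, the translation factor genes were among the bright genes of the arrays, and more of them were lower than higher with FGF19. The mean log2 signal of 57 of the 58 lay above the highest array median, and single signals ranged from 91.5 for EEF2K to 7606 for EEF1A1. In FGF19 against Mock, 21 of the 58 were lower and 7 higher at an adjusted p under 0.05 (limma, Benjamini-Hochberg over all probesets), or 36.2% and 12.1%. Over all 33297 probesets, 14.1% were lower and 18.2% higher. In FGF19 + TNFα against TNFα, 20 were lower and 6 higher (34.5% and 10.3%), against 12.9% lower and 19.4% higher over all probesets. The brightest 25% of the probesets with 1 symbol, which is the more similar background in signal, had 23.4% lower and 31.5% higher in FGF19 against Mock, and 21.8% lower and 30.5% higher in FGF19 + TNFα against TNFα. The median log2 difference of the 58 was −0.21 in FGF19 against Mock and −0.15 in FGF19 + TNFα against TNFα, where the medians of all probesets were 0.08 and 0.10. Called differences were mostly under 2-fold: 4 of the 21 falls and 0 of the 7 rises against Mock reached that size.

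The 2 comparisons share no array, and their values for the 58 genes lay close together (r = 0.977 across genes, which are not independent replicates). Calls of both came from 1 fit with a shared estimate of the spread, so the calls are not fully independent. A total of 18 genes were lower in both and 6 higher in both, 0 were called in opposite directions, and 53 of the 58 had the same sign. The same counts and r were not worked out over all probesets, so this closeness cannot be called particular to these genes. All 4 arrays given FGF19 lay below all 4 others for 27 of the 58 genes and above all 4 others for 12. The shares were 18.4% and 25.5% of all probesets, and 31.2% and 39.7% of the brightest 25% of those with 1 symbol. The 58 genes together held 0.615% to 0.624% of the summed signal with FGF19 + TNFα and 0.613% to 0.634% with FGF19, against 0.663% to 0.673% with TNFα and 0.678% to 0.681% in Mock. Bulk RNA of a culture does not tell a lower level in every cell from fewer cells with that RNA. FGF19 replicate 1 was the lower of its pair for 19 of the 21 genes that fell against Mock. Leaving out 1 array reduced the counts more than any other choice. Without Mock replicate 1 there were 14 lower and 2 higher genes in FGF19 against Mock (7.37% and 9.93% of all probesets), and without Mock replicate 2 there were 10 and 4 (7.03% and 10.3%). In FGF19 + TNFα against TNFα, there were 8 lower and 4 higher genes without TNFα replicate 1 (6.4% and 10.4% of all probesets) and 9 and 4 without TNFα replicate 2 (5.85% and 9.81%). Without FGF19 + TNFα replicate 1 there were 10 and 5 (8.47% and 11.3%), and without FGF19 + TNFα replicate 2 there were 8 and 4 (5.62% and 7.83%). The calls that passed in all 8 fits with 1 array left out were those of EEF1B2, EEF2, EEF2KMT, EIF2B5, EIF3B, EIF3G, EIF4A3, EIF4EBP1, EIF4EBP2, EIF4H, EIF5B and EIF6 against Mock; against TNFα they were the same without EEF1B2 and EIF4EBP1 and with EIF2A.

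**Figure D1:**
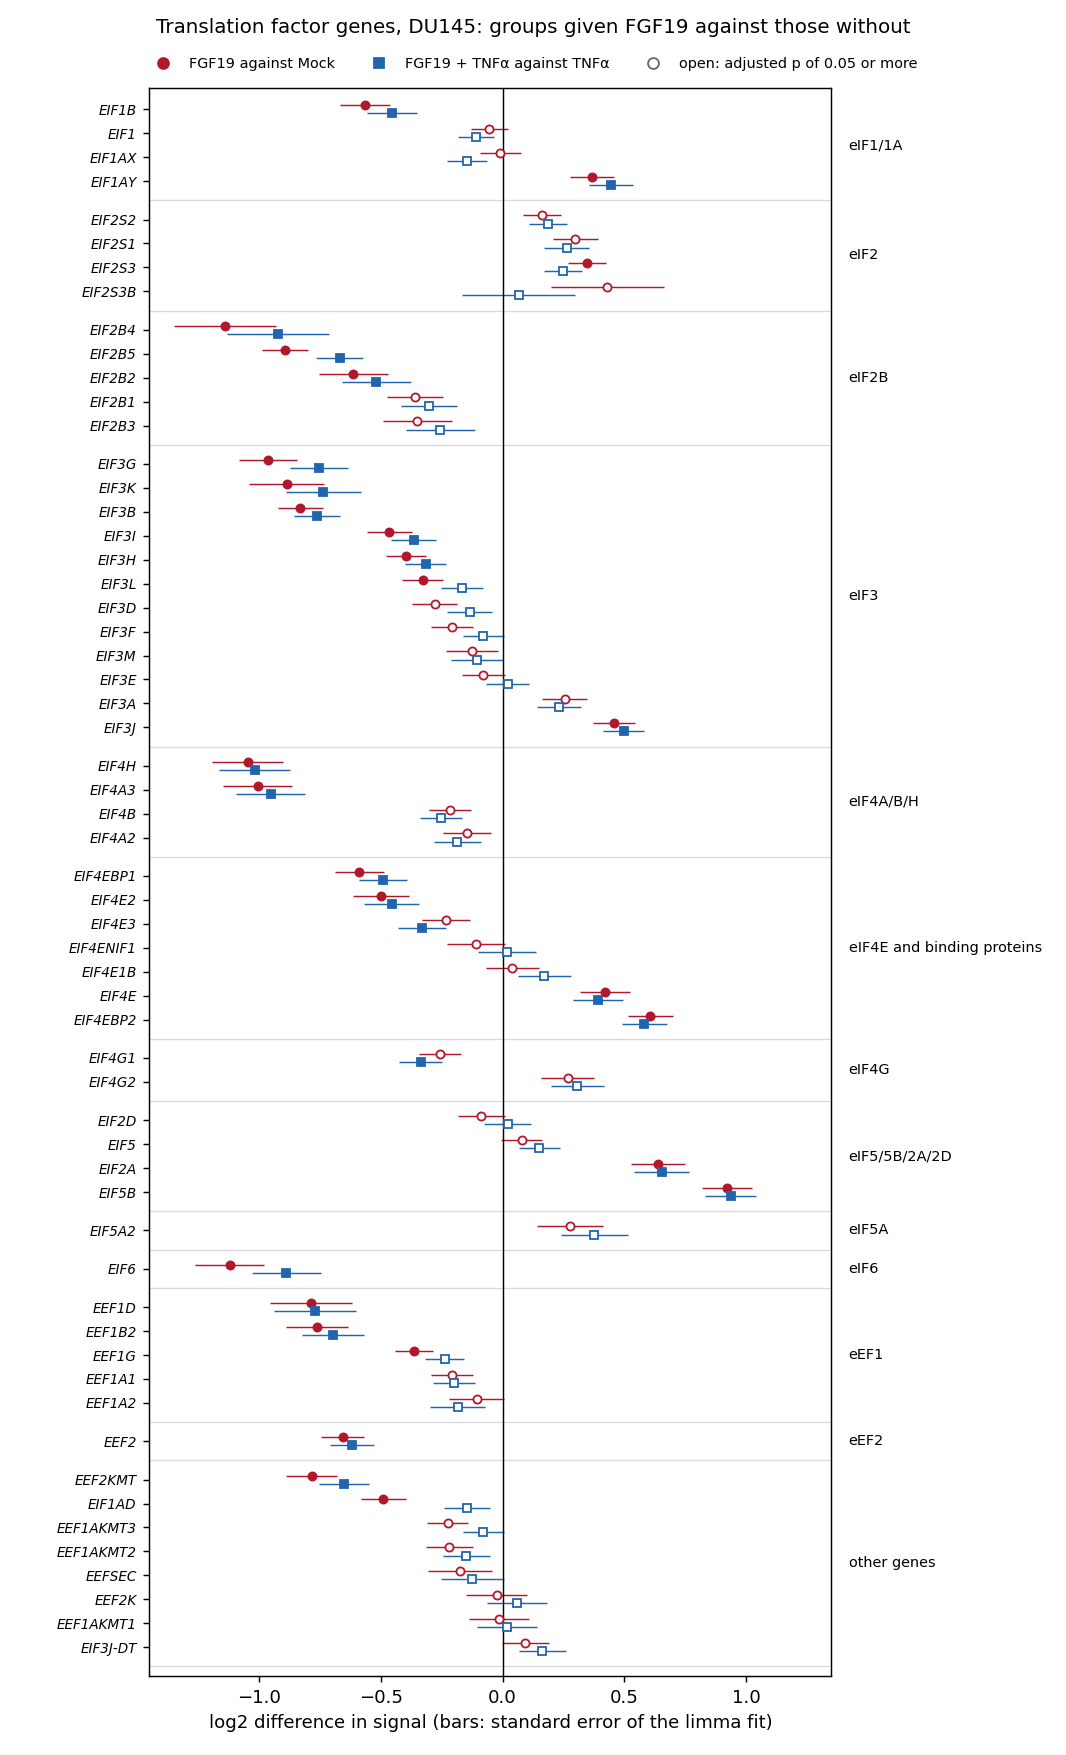
Log2 difference in signal (x axis) of each of the 58 genes, grouped by factor complex, in FGF19 against Mock (circles) and FGF19 + TNFα against TNFα (squares), with standard errors of the limma fit as bars and 2 arrays in each group. Filled symbols passed an adjusted p of 0.05; 21 genes are lower and 7 higher against Mock, and the pair of symbols of a gene mostly lies on the same side of 0.

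The start sites of the factor genes are shown because the 5′ terminal oligopyrimidine tract is a sequence feature that played no part in their choice. RefSeq promoter sequences (GRCh38.p14, 250 bases before to 50 bases after each start) were found for 46 of the 58 genes. A start at C followed by an unbroken run of C or T of at least 5 bases in all, at any listed start, occurred in 13 of the 46 (28.3%), against 5.14% of all 27305 genes in the table. The windows of 7 of these genes are shown 5′ to 3′ on the strand of transcription, 15 bases on either side of the start, with the tract in capitals (that of EEF1B2, 16 bases long, runs past the end of its window), for genes whose signal was lower with FGF19 than in Mock (EEF2, EEF1B2, EIF3K), for genes that passed no test (EEF1A1, EIF3F), and for genes that were higher (EIF2A, EIF2S3):
EEF2, chr19:3985449-3985478, minus strand: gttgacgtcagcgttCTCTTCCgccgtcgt
EEF1B2, chr2:206159880-206159909, plus strand: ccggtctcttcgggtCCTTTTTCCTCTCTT
EIF3K, chr19:38619173-38619202, plus strand: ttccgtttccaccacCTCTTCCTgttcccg
EEF1A1, chr6:73521018-73521047, minus strand: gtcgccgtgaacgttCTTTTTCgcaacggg
EIF3F, chr11:7987322-7987351, plus strand: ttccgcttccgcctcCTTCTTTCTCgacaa
EIF2A, chr3:150546772-150546801, plus strand: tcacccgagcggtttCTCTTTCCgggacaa
EIF2S3, chrX:24054941-24054970, plus strand: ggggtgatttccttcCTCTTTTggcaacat
The tract stood at the start of genes of all 3 outcomes. Among the 13 genes with it, 3 were lower and 2 higher with FGF19 than in Mock, where 15 of all 46 genes with a promoter were lower and 7 higher. The median log2 difference was −0.21 over these 13 genes and −0.22 over the 33 genes with a promoter and without the tract. An 8-base sequence recognized by ETS factors, CCGGAAGT on either strand anywhere in the 300 bases, was present in 9 of the 46 genes (19.6%) and in 4.95% of all genes. Of these 9, 6 were lower and 1 higher with FGF19 than in Mock, against the 15 lower and 7 higher of all 46. Their median log2 difference was −0.49, against −0.15 over the 37 others. Calls were not counted over all genes with this sequence, so a link between it and the falls was not tested. These are matches of letters and were given no test.

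No difference with TNFα passed the test for any of these genes. In TNFα against Mock, 0 of the 58 passed the limma test, while 0.967% of all probesets were higher and 0.0961% lower. An unadjusted p under 0.05 was found for 1 of the 58 and for 4146 of all 33297 probesets. In FGF19 + TNFα against FGF19, 0 of the 58 passed, with 0.279% higher and 0.003% lower over all probesets. There, 0 of the 58 and 2000 of all probesets had an unadjusted p under 0.05. The test of the interaction asks whether the TNFα difference was another one in cells given FGF19. It called 0 of the 58 and 0% of all probesets. In it, 1 member and 1715 of all probesets had an unadjusted p under 0.05. The single gene in both cases was EIF1AD, chosen here after its values were seen. Its log2 difference was −0.39 (standard error 0.09, adjusted p = 0.178, limma) in TNFα against Mock, and its interaction term was 0.34 (standard error 0.13, adjusted p = 0.96). The 58 log2 differences spanned −0.39 to 0.23 in TNFα against Mock and −0.16 to 0.19 in FGF19 + TNFα against FGF19, and they spanned −1.14 to 0.92 in FGF19 against Mock. Among the 4 groups, 17 of the 58 passed the moderated F test of limma (adjusted p under 0.015), a share above the 20.9% of all probesets and below the 39.7% of the brightest 25% of those with 1 symbol. Without either Mock array that count was 0 (3.35% and 3.45% of all probesets) and without either TNFα array 3 (8.02% and 7.47%). It was 6 without FGF19 + TNFα replicate 1 (9.49%) and 4 without FGF19 + TNFα replicate 2 (7.5%).

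**Figure D2:**
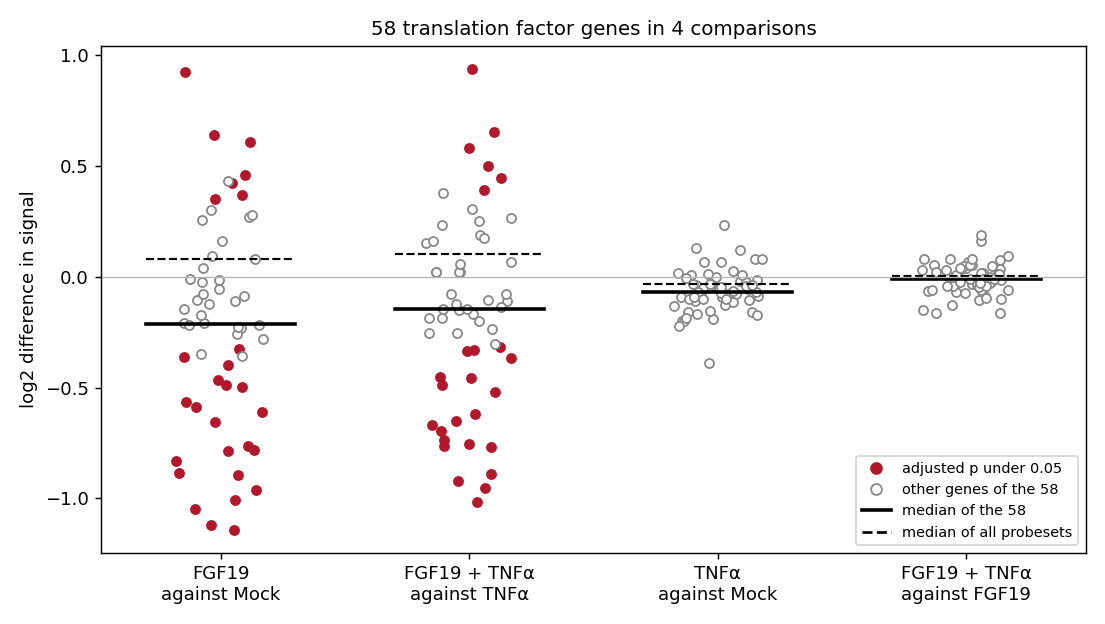
Log2 difference in signal (y axis) of the 58 genes in the 4 comparisons, 1 point for each gene, filled where the adjusted p was under 0.05, with the median of the 58 as a solid line and that of all probesets as a dashed line. The points spread from −1.14 to 0.92 in FGF19 against Mock and only from −0.39 to 0.23 in TNFα against Mock, where none is filled.

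The genes of eIF2, which brings the initiator tRNA, and those of eIF2B, the exchange factor that reloads eIF2 with GTP, differed in direction. All 4 eIF2 genes had positive log2 differences in both comparisons of FGF19, and all 5 eIF2B genes had negative ones. The medians of all probesets were also positive, at 0.08 and 0.10. Of the 4 eIF2 genes, 1 was called against Mock and 0 against TNFα, where 18.2% and 19.4% of all probesets were higher. EIF2S2 had log2 differences of 0.16 and 0.19 that did not pass (adjusted p = 0.174 and 0.119, limma). EIF2S3, which encodes the GTP-binding γ subunit and was the brightest of the eIF2 genes, had signals of 3535 and 3631 with FGF19 + TNFα and 3534 and 3486 with FGF19, against 3083 and 2943 with TNFα and 2750.1 and 2764 in Mock. All arrays given FGF19 were above all others. It rose 1.27-fold against Mock (log2 difference 0.35, standard error 0.08, adjusted p = 0.0182), and its difference of 0.25 against TNFα did not pass (adjusted p = 0.0531). Without Mock replicate 1, Mock replicate 2 or FGF19 replicate 1 the call against Mock was lost (highest adjusted p = 0.0875). EIF2S1, the gene of the α subunit whose phosphorylation slows initiation, was measured at 2466 and 2312 with FGF19 + TNFα and 2573 and 2326 with FGF19, against 2028 and 1952 with TNFα and 1939 and 2041 in Mock. Arrays with and without FGF19 did not overlap, but neither difference passed (log2 0.30, adjusted p = 0.0536, against Mock and 0.26, adjusted p = 0.0759, against TNFα). EIF2S3B is a close copy of EIF2S3, so its signal may include that of EIF2S3. The FGF19 arrays of EIF2S3B lay far apart, at 428 and 261, against 245 and 251 in Mock. Its log2 differences of 0.43 and 0.07 did not pass.

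Of the 5 eIF2B genes, EIF2B2, EIF2B4 and EIF2B5 were lower in both comparisons. Over all probesets, 14.1% were lower in FGF19 against Mock and 12.9% in FGF19 + TNFα against TNFα. EIF2B5, which encodes the catalytic ε subunit, had 164 and 153 with FGF19 + TNFα and 146 and 164 with FGF19, against 247 and 256 with TNFα and 293 and 281 in Mock. It was 1.86-fold lower in FGF19 against Mock (log2 −0.89, standard error 0.10, adjusted p = 0.00287) and 1.59-fold lower in FGF19 + TNFα against TNFα (log2 −0.67, standard error 0.10, adjusted p = 0.00528). EIF2B4, the gene of the regulatory δ subunit, had the largest fall of all 58 genes against Mock. Its signals were 152 and 169.8 with FGF19 + TNFα and 126 and 200.0 with FGF19, against 301 and 308 with TNFα and 340.0 and 361 in Mock. The FGF19 arrays differed from each other by more than those of any other group, yet both were below every array without FGF19. The fall was 2.2-fold against Mock (log2 −1.14, standard error 0.21, adjusted p = 0.00936) and 1.9-fold against TNFα (log2 −0.92, standard error 0.21, adjusted p = 0.0201). The first call was lost without Mock replicate 2 (adjusted p = 0.056), and the second without either TNFα array or either FGF19 + TNFα array (highest adjusted p = 0.0868). EIF2B1, the brightest eIF2B gene, had 1032 and 1008 with FGF19 + TNFα and 936 and 1157 with FGF19, against 1253 and 1263 with TNFα and 1324 and 1346 in Mock, and passed in neither comparison (adjusted p = 0.0582 and 0.0923), like EIF2B3 (log2 −0.35 and −0.26). The calls of EIF2B2, at log2 differences of −0.61 and −0.52, were lost without either Mock array (adjusted p up to 0.109) and, in the second comparison, without any 1 Mock, TNFα or FGF19 + TNFα array (up to 0.134).

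eIF3 is the largest initiation factor and binds the small ribosomal subunit as an assembly of many proteins. Of its 12 measured genes, 6 were lower and 1 higher in FGF19 against Mock, and 5 lower and 1 higher in FGF19 + TNFα against TNFα. Over all probesets, 14.1% were lower and 18.2% higher in the first comparison, and 12.9% and 19.4% in the second. In the brightest 25% of those with 1 symbol, the shares were 23.4% and 31.5%, then 21.8% and 30.5%. EIF3B and EIF3G, which encode subunits of the module that also binds eIF3i, were among the clearest falls. EIF3B had 989 and 902 with FGF19 + TNFα and 904 and 998 with FGF19, against 1599 and 1604 with TNFα and 1699 and 1678 in Mock. It was 1.78-fold lower against Mock (log2 −0.83, standard error 0.09, adjusted p = 0.00298) and 1.7-fold lower against TNFα (log2 −0.76, standard error 0.09, adjusted p = 0.00383). EIF3G had 557 and 622 with FGF19 + TNFα and 476 and 582 with FGF19, against 981 and 1003 with TNFα and 1038 and 1014 in Mock. No array given FGF19 came near those without it, and the falls were 1.95-fold against Mock (log2 −0.96, adjusted p = 0.00345) and 1.69-fold against TNFα (log2 −0.75, adjusted p = 0.00693). EIF3K, a gene of a small subunit at the periphery of the complex, had 771 and 809.6 with FGF19 + TNFα and 639 and 877 with FGF19, against 1296 and 1337 with TNFα and 1337 and 1432 in Mock. Its falls were 1.85-fold against Mock (adjusted p = 0.008) and 1.67-fold against TNFα (adjusted p = 0.0155). They were lost without Mock replicate 2 in the first comparison (adjusted p = 0.0508) and without any 1 TNFα or FGF19 + TNFα array in the second (highest adjusted p = 0.073).

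The j subunit went the other way. EIF3J, whose product is loosely attached to eIF3 and sits at the decoding center, had 1792 and 1683 with FGF19 + TNFα and 1719.9 and 1639 with FGF19, against 1264 and 1198 with TNFα and 1210.0 and 1236 in Mock. The groups with and without FGF19 were clearly apart. EIF3J rose 1.37-fold against Mock (log2 0.46, standard error 0.08, adjusted p = 0.00969) and 1.41-fold against TNFα (log2 0.50, standard error 0.08, adjusted p = 0.00836). The calls were lost without either Mock array (adjusted p up to 0.0586) and without TNFα replicate 2 (adjusted p = 0.0555). EIF3J-DT, the divergent noncoding transcript beside it, had log2 differences of 0.09 and 0.16 that did not pass. EIF3A, the gene of the largest subunit and the brightest of the 12, had 3310.1 and 3408 with FGF19 + TNFα and 3526 and 3246 with FGF19, against 2923 and 2801 with TNFα and 2959.8 and 2717 in Mock. Its FGF19 arrays were above those without it, but the differences of 0.25 and 0.23 did not pass (adjusted p = 0.081 and 0.103). EIF3H, EIF3I and EIF3L completed the falls against Mock, at log2 differences of −0.40, −0.46 and −0.33, with signals of 1330.2 to 1855 with FGF19 and 1962 to 2365 in Mock. Each of these 3 calls was lost without either Mock array (highest adjusted p = 0.133), and that of EIF3L also without either FGF19 array or either TNFα array. Against TNFα, EIF3H and EIF3I were lower as well (log2 −0.32 and −0.37), and EIF3L did not pass (log2 −0.17). With 1 array left out, the EIF3H difference ranged from −0.34 to −0.29 and that of EIF3I from −0.38 to −0.35. Both calls against TNFα were lost without any 1 Mock, TNFα or FGF19 + TNFα array. EIF3D, EIF3E, EIF3F and EIF3M had log2 differences from −0.28 to −0.08 against Mock and passed in neither comparison. A second, dimmer probeset of EIF3F had 0.04 where the brighter one had −0.21, and both were without a call.

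**Figure D3:**
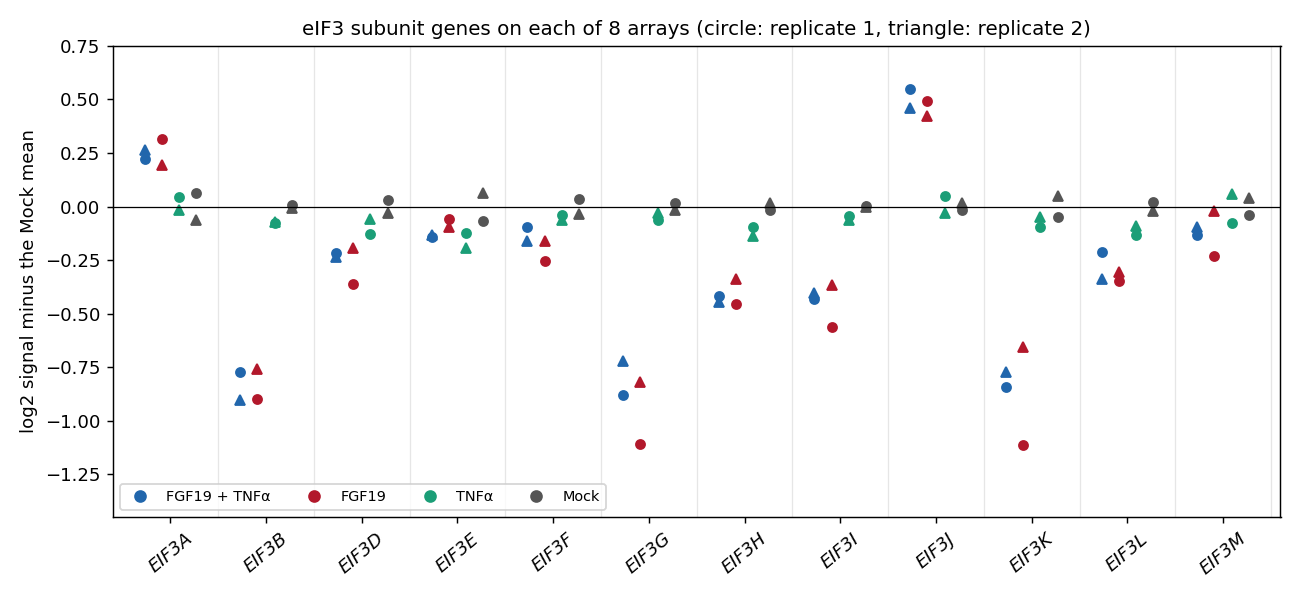
Log2 signal of the 12 eIF3 genes on each of the 8 arrays, as the difference from the mean of the Mock arrays (y axis), with colors for the 4 groups and a symbol for each replicate. EIF3B, EIF3G and EIF3K lie lowest on all arrays given FGF19 and EIF3J above 0, while the TNFα arrays stay close to Mock.

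The genes of the cap-binding assembly split as well. EIF4E, which encodes the cap-binding protein, had 473 and 439 with FGF19 + TNFα and 453 and 487 with FGF19, against 339 and 356 with TNFα and 329.6 and 373 in Mock, without overlap. It rose 1.34-fold against Mock (log2 0.42, standard error 0.10, adjusted p = 0.0235) and 1.31-fold against TNFα (log2 0.39, standard error 0.10, adjusted p = 0.0304). The calls were lost without Mock replicate 1 or FGF19 replicate 2 (adjusted p up to 0.124) and without any 1 TNFα or FGF19 + TNFα array (adjusted p up to 0.133). Its inhibitors, the eIF4E-binding proteins, moved in opposite directions. EIF4EBP1 was measured at 260.2 and 228 with FGF19 + TNFα and 243 and 265 with FGF19, against 348 and 336 with TNFα and 383 and 379.7 in Mock. EIF4EBP2 was measured at 1483 and 1463 with FGF19 + TNFα and 1487 and 1355 with FGF19, against 963 and 1006 with TNFα and 975 and 892 in Mock. Every array given FGF19 was thus below the others for EIF4EBP1 and above them for EIF4EBP2. EIF4EBP1 fell 1.5-fold against Mock (log2 −0.59, adjusted p = 0.0075) and 1.4-fold against TNFα (log2 −0.49, adjusted p = 0.0145). The call against TNFα was lost without TNFα replicate 1, TNFα replicate 2 or FGF19 + TNFα replicate 2 (adjusted p up to 0.0772). EIF4EBP2 rose 1.52-fold (log2 0.61, adjusted p = 0.00561) and 1.5-fold (log2 0.58, adjusted p = 0.00702). EIF4E2, a relative of EIF4E that represses translation, was lower in both comparisons (log2 −0.50 and −0.46), and EIF4E3 passed against TNFα (log2 −0.33, adjusted p = 0.0486) and not against Mock (log2 −0.23, adjusted p = 0.13). The calls of EIF4E2 were lost without either Mock array or FGF19 replicate 1 (adjusted p up to 0.108) and without any 1 TNFα or FGF19 + TNFα array (up to 0.13), and that of EIF4E3 without any 1 Mock, TNFα or FGF19 + TNFα array (up to 0.196). EIF4E1B and EIF4ENIF1, the other genes of this set, had log2 differences of 0.04 and −0.11 against Mock without a call.

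Of the 2 scaffold and 4 helicase or cofactor genes, 2 were lower in FGF19 against Mock and 3 in FGF19 + TNFα against TNFα, and 0 were higher in either. Over all probesets, 14.1% were lower and 18.2% higher in the first comparison, and 12.9% and 19.4% in the second. In the brightest 25% of those with 1 symbol, 23.4% and 21.8% were lower. EIF4G1, the main scaffold, had 1442 and 1330.2 with FGF19 + TNFα and 1351 and 1447 with FGF19, against 1764 and 1733 with TNFα and 1643 and 1698 in Mock. Arrays with FGF19 were lower, and the difference passed against TNFα (log2 −0.34, adjusted p = 0.0311) but not against Mock (log2 −0.26, adjusted p = 0.0704). It was lost without any 1 Mock, TNFα or FGF19 + TNFα array (highest adjusted p = 0.146). EIF4G2, a related protein that lacks the eIF4E-binding part, had 3926 and 3668 with FGF19 + TNFα and 4089 and 3506 with FGF19, against 3199 and 2942 with TNFα and 3106 and 3186 in Mock, and did not pass (log2 0.27 and 0.31). EIF4H, which stimulates the helicase eIF4A, had 1159.6 and 1112 with FGF19 + TNFα and 1006 and 1360.4 with FGF19, against 2332 and 2267 with TNFα and 2379 and 2455 in Mock. Its signal was 2.07-fold lower against Mock (log2 −1.05, standard error 0.15, adjusted p = 0.00437) and 2.02-fold lower against TNFα (log2 −1.02, standard error 0.15, adjusted p = 0.00532), the one called fall that reached 2-fold against TNFα. A second probeset of EIF4H had log2 differences of −1.06 and −1.02. EIF4A3, a helicase of the same family that belongs to the exon junction complex rather than to cap binding, had 670.0 and 656 with FGF19 + TNFα and 594 and 791 with FGF19, against 1278 and 1286 with TNFα and 1344 and 1407 in Mock. It fell 2.01-fold (log2 −1.01, adjusted p = 0.00438) and 1.93-fold (log2 −0.95, adjusted p = 0.00563). EIF4B, a cofactor of eIF4A, did not pass (log2 −0.22 and −0.25). EIF4A2, the brightest of this set, had 2642 and 2476 with FGF19 + TNFα and 2602 and 2917 with FGF19, against 2866 and 2953 with TNFα and 2947 and 3156 in Mock. Its main probeset did not pass (log2 −0.15, adjusted p = 0.301, against Mock), whereas its dimmer probeset was lower in both comparisons (log2 −0.50, adjusted p = 0.0104, and −0.62, adjusted p = 0.00592), so the 2 probesets disagree.

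**Figure D4:**
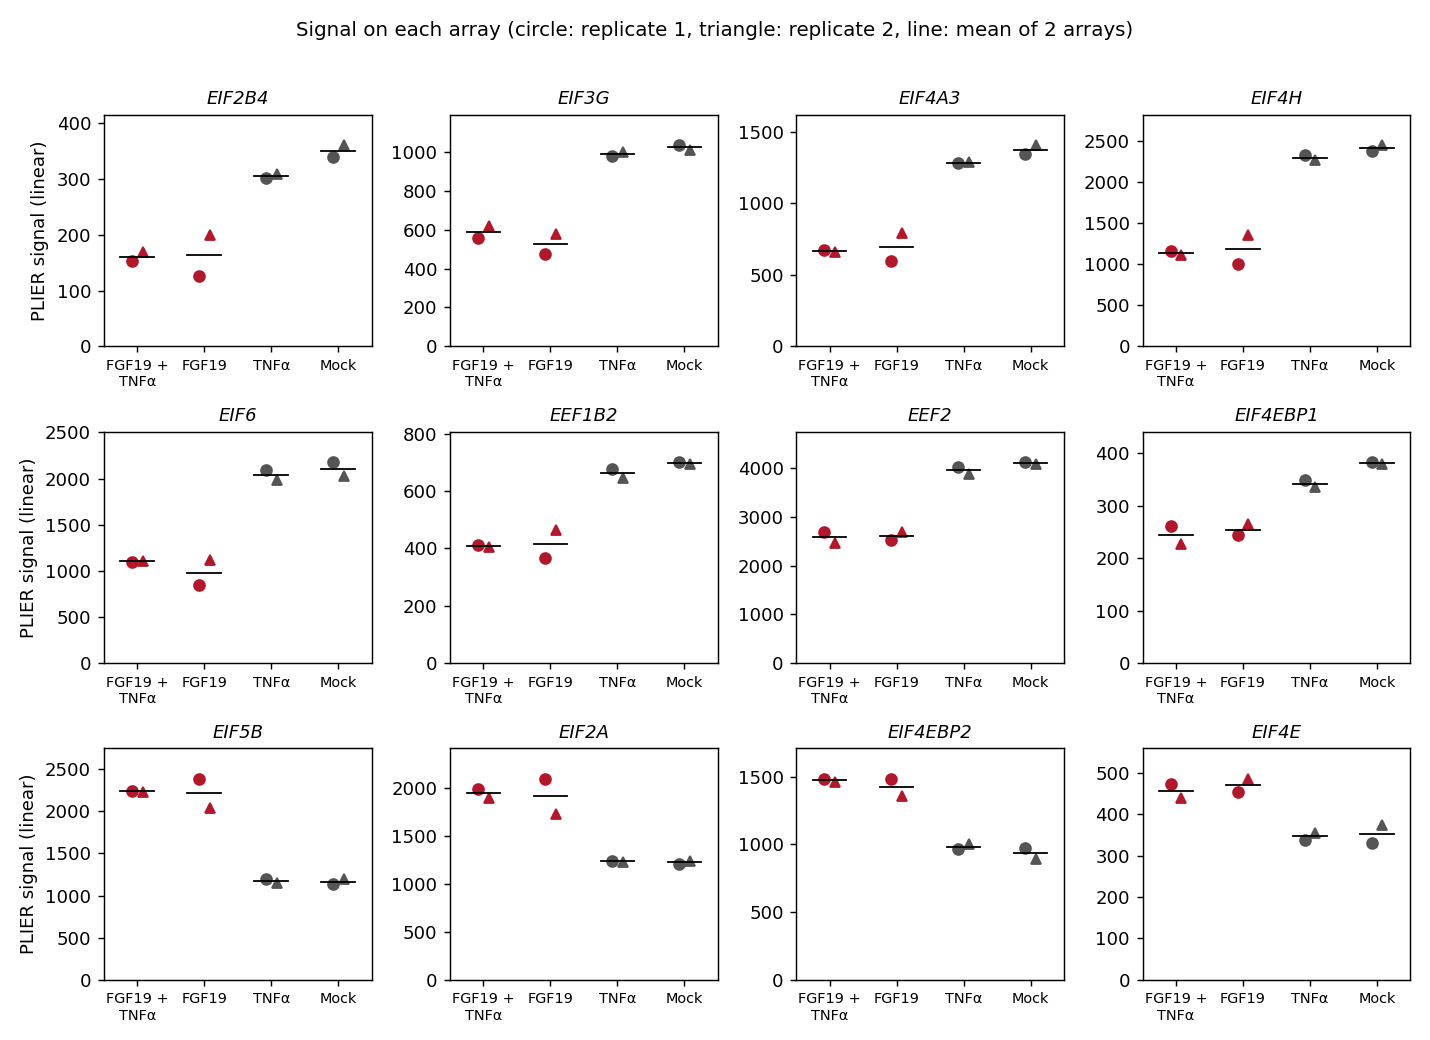
PLIER signal (linear y axis from 0) of 12 translation factor genes on each of the 8 arrays, with groups on the x axis, a circle or triangle for each replicate and a line for the mean of the 2 arrays. The red arrays given FGF19 lie below the gray arrays for the first 8 genes, from EIF2B4 to EIF4EBP1, and above them for EIF5B, EIF2A, EIF4EBP2 and EIF4E.

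The largest rises were those of EIF5B and EIF2A, with EIF4EBP2 next. EIF5B, the GTPase that joins the ribosomal subunits, had 2244 and 2227 with FGF19 + TNFα and 2388 and 2037 with FGF19, against 1194 and 1143 with TNFα and 1132 and 1198 in Mock. It rose 1.89-fold against Mock (log2 0.92, standard error 0.10, adjusted p = 0.00298) and 1.91-fold against TNFα (log2 0.94, standard error 0.10, adjusted p = 0.00354). EIF2A, a protein that can bind initiator tRNA apart from eIF2, had 1991 and 1891 with FGF19 + TNFα and 2096 and 1727 with FGF19, against 1242 and 1226 with TNFα and 1205 and 1239 in Mock. All arrays given FGF19 were above all others. It rose 1.56-fold (log2 0.64, adjusted p = 0.00814) and 1.57-fold (log2 0.65, adjusted p = 0.00842), and without Mock replicate 1 the first adjusted p was 0.0506. EIF5, the activator of the GTPase of eIF2, had 2174 and 2132 with FGF19 + TNFα and 2269 and 2120.4 with FGF19, against 1998 and 1882 with TNFα and 2107 and 2046 in Mock, with log2 differences of 0.08 and 0.15 that did not pass. EIF2D, which acts in recycling and reinitiation, was likewise without a call (−0.09 and 0.02).

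Among the start-codon factors, EIF1 was bright and flat. It had 4422 and 4386 with FGF19 + TNFα and 4211 and 4215 with FGF19, against 4756 and 4740.5 with TNFα and 4419 and 4328 in Mock, and its log2 difference against Mock was −0.05 (adjusted p = 0.625), of the opposite sign after quantile normalization (0.08). Its paralog EIF1B had 327 and 307 with FGF19 + TNFα and 325 and 279 with FGF19, against 426 and 442 with TNFα and 442 and 448 in Mock. EIF1B was lower in both comparisons (log2 −0.57, adjusted p = 0.009, and −0.45, adjusted p = 0.02). These calls were lost without Mock replicate 2 (adjusted p = 0.0537) and without any 1 TNFα or FGF19 + TNFα array (highest adjusted p = 0.101). Of the paired copies of the eIF1A gene, EIF1AY had 1997 and 1953 with FGF19 + TNFα and 1890.0 and 1969 with FGF19, against 1397 and 1509 with TNFα and 1436 and 1558 in Mock. It was higher in both comparisons (log2 0.37, adjusted p = 0.0245, and 0.44, adjusted p = 0.014), while EIF1AX had −0.01 and −0.15. The sequences of these copies are nearly identical, so their signals cannot be kept fully apart. The call of EIF1AY was lost without any 1 Mock or FGF19 array in the first comparison (adjusted p up to 0.129) and without TNFα replicate 1, FGF19 + TNFα replicate 1 or FGF19 + TNFα replicate 2 in the second (adjusted p up to 0.0808).

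EIF6, which keeps the large ribosomal subunit from joining too early and acts in its biogenesis, had 1097 and 1106 with FGF19 + TNFα and 842 and 1112 with FGF19, against 2097 and 1980.4 with TNFα and 2181 and 2028 in Mock. The fall was 2.17-fold against Mock (log2 −1.12, standard error 0.14, adjusted p = 0.00352) and 1.85-fold against TNFα (log2 −0.89, standard error 0.14, adjusted p = 0.0069). FGF19 alone gave the lowest array, and the interaction was not called (log2 0.23, adjusted p = 0.984). EIF5A2, the less abundant relative of EIF5A, which helps ribosomes through difficult peptide bonds, had 179 and 230.3 with FGF19 + TNFα and 202 and 225 with FGF19, against 159 and 154 with TNFα and 181 and 171 in Mock. Its arrays with FGF19 overlapped those without it, and neither difference passed (log2 0.28 and 0.38).

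The elongation factor genes all had negative log2 differences with FGF19. EEF2, the translocase, had 2693 and 2461 with FGF19 + TNFα and 2521 and 2697 with FGF19, against 4028 and 3878 with TNFα and 4129 and 4087 in Mock. It was 1.58-fold lower against Mock (log2 −0.66, standard error 0.09, adjusted p = 0.00408) and 1.54-fold lower against TNFα (log2 −0.62, standard error 0.09, adjusted p = 0.00533). EEF1A1, the carrier of aminoacyl-tRNA and the brightest of the 58 genes, had 6392 and 5838 with FGF19 + TNFα and 6592 and 6349.9 with FGF19, against 7112 and 6907 with TNFα and 7342 and 7606 in Mock. Arrays with and without FGF19 did not overlap, but the differences of −0.21 and −0.20 did not pass (adjusted p = 0.12 and 0.13); EEF1A1 has many processed copies in the genome, which its probes may share. EEF1B2 and EEF1D encode exchange factors that reload eEF1A. EEF1B2 had 412 and 405 with FGF19 + TNFα and 365 and 464 with FGF19, against 678 and 646 with TNFα and 702 and 694 in Mock. EEF1D had 1426 and 1355 with FGF19 + TNFα and 1161 and 1669 with FGF19, against 2379 and 2363 with TNFα and 2377 and 2428 in Mock. Both were lower on every array given FGF19, and both had FGF19 arrays that lay apart. EEF1B2 fell 1.7-fold and 1.62-fold (log2 −0.76, adjusted p = 0.00685, and −0.70, adjusted p = 0.00994), and the second call was lost without TNFα replicate 1 or FGF19 + TNFα replicate 2 (adjusted p up to 0.0564). EEF1D fell 1.73-fold and 1.71-fold (log2 −0.79, adjusted p = 0.0155, and −0.77, adjusted p = 0.0178), and its calls were lost without either Mock array in the first comparison and without any 1 TNFα or FGF19 + TNFα array in the second (adjusted p up to 0.0847). The dimmer probeset of EEF1D was lower against Mock (log2 −0.55, adjusted p = 0.0198) but did not pass against TNFα (log2 −0.36, adjusted p = 0.0726). EEF1A2, the second carrier gene, had log2 differences of −0.11 and −0.18 that did not pass. EEF1G, a structural subunit, passed against Mock only (log2 −0.36, adjusted p = 0.0161), and not without either Mock array (highest adjusted p = 0.0818).

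Of the 8 further genes that the symbols took in, EEF2KMT, which encodes a methyltransferase of eEF2, was lower in both comparisons. It had 205 and 188 with FGF19 + TNFα and 179 and 204 with FGF19, against 313 and 303 with TNFα and 341 and 316 in Mock. The log2 differences were −0.78 (adjusted p = 0.00388) and −0.65 (adjusted p = 0.00694). EIF1AD was lower against Mock (log2 −0.49, adjusted p = 0.0106; 0.0651 without Mock replicate 2) but not against TNFα (log2 −0.15, adjusted p = 0.275). EEFSEC, the brightest of the 8, had 1007 and 960.5 with FGF19 + TNFα and 827 and 1049 with FGF19, against 1075 and 1067 with TNFα and 1103 and 1003 in Mock, and overlapped between the groups. EEF2K, the kinase that inhibits eEF2, was the dimmest, at 91.5 to 114 with FGF19 and 92.6 to 106 without it, with no call.

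Genes that act on these factors were counted for comparison. In FGF19 against Mock, 14.1% of all probesets were lower and 18.2% higher, and 23.4% and 31.5% of the brightest 25% with 1 symbol. In FGF19 + TNFα against TNFα, the shares were 12.9% and 19.4%, and 21.8% and 30.5%. Of 7 measured enzymes that modify eIF5A or eEF2, 4 were lower and 1 higher in both comparisons of FGF19. DPH2, needed for the first step of diphthamide formation on eEF2, had 90.0 and 78.1 with FGF19 + TNFα and 75.6 and 88.8 with FGF19, against 216 and 223 with TNFα and 213 and 222 in Mock, and fell 2.65-fold against Mock (log2 −1.41, adjusted p = 0.00275). DPH6, of the last step, rose (log2 0.43, adjusted p = 0.00976). Of 7 poly(A)-binding proteins, partners and repressors, 2 were higher and 0 lower against Mock, and 2 higher and 1 lower against TNFα, where PABPC4, the gene of a poly(A)-binding protein, was the lower one (log2 −0.45, adjusted p = 0.0168). LARP1, the binder of the 5′ tract described above, rose 1.6-fold against Mock (log2 0.68, adjusted p = 0.00303), with 1351 and 1355 with FGF19 + TNFα and 1284 and 1223 with FGF19, against 803 and 795 with TNFα and 786 and 777 in Mock. Its relative LARP4 rose as well (log2 0.46, adjusted p = 0.00902). Of 8 termination and recycling genes, 1 was lower and 0 higher against Mock, and 2 lower and 1 higher against TNFα. The ribosome rescue factor gene HBS1L was lower in both (log2 −0.35, adjusted p = 0.0403, and −0.47, adjusted p = 0.0162). Against TNFα, MCTS1 was also lower (log2 −0.41, adjusted p = 0.0304) and GSPT1, the gene of the release factor eRF3a, was higher (log2 0.38, adjusted p = 0.0324). Of 9 mitochondrial translation factors, 6 were higher and 2 lower in both comparisons. MTIF3, a mitochondrial initiation factor, rose 1.89-fold (log2 0.92, adjusted p = 0.00295) and TUFM, the mitochondrial counterpart of eEF1A, fell 2.29-fold (log2 −1.20, adjusted p = 0.00317). The median log2 difference against Mock was −0.37 for the modifying enzymes, 0.15 for the poly(A) list, 0.11 for termination and 0.49 for the mitochondrial factors. Against Mock, the 28.6% higher of the poly(A) list and the 12.5% lower of the termination list lay near the shares of probesets given above.

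A pair of genes that act on eIF2α were higher in TNFα against Mock, where none of the eIF2 subunit genes passed. Over all probesets, 0.967% were higher and 0.0961% lower in TNFα against Mock. Of 14 kinases and phosphatase subunits that act on initiation, 2 were higher and 0 lower in that comparison. They were PPP1R15A and PPP1R15B, which direct a phosphatase to eIF2α and so reverse its phosphorylation. PPP1R15A had 592 and 638 with FGF19 + TNFα and 348 and 421 with FGF19, against 685 and 711 with TNFα and 281 and 292 in Mock. PPP1R15B had 1452 and 1533 with FGF19 + TNFα and 849.8 and 906 with FGF19, against 2504 and 2546 with TNFα and 1001 and 903 in Mock. For both genes the TNFα arrays were the highest of the 4 groups. The 4 EIF2AK genes, the kinases of eIF2α, had log2 differences of −0.08 to 0.08 in TNFα against Mock and no call. In FGF19 + TNFα against FGF19, 0 of the 14 passed the limma test, with PPP1R15A at log2 0.68 (adjusted p = 0.148) and PPP1R15B at 0.77 (adjusted p = 0.0505). An unadjusted p under 0.05 was found for 2 of the 14 and for 2000 of all 33297 probesets. PPP1R15A rose 2.44-fold in TNFα against Mock (log2 1.29, standard error 0.11, adjusted p = 0.007) and PPP1R15B 2.66-fold (log2 1.41, standard error 0.09, adjusted p = 0.00235). PPP1R15B was 1.69-fold lower in FGF19 + TNFα than in TNFα (log2 −0.76, adjusted p = 0.00383), but its interaction did not pass (adjusted p = 0.742). In FGF19 against Mock 5 of these 14 genes were higher and 4 lower (35.7% and 28.6%), the rises including all 4 EIF2AK genes (log2 0.29 to 0.50). In that comparison, 18.2% of all probesets were higher and 14.1% lower. Of the brightest 25% with 1 symbol, 31.5% were higher and 23.4% lower, near the shares of these 14.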

How the data were processed

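Gene expression in DU145 cells was measured on 8 arrays in 4 groups of 2, taken from the sample labels. The authors deposited linear signal intensity for 33297 probesets, made with Affymetrix Expression Console and PLIER according to the submitters' notes. No versions or normalization are named in those notes, the labels or the paper, and every sample column entered the fit. Values of 0, 240 in all, were set to the smallest positive signal, 0.01, before log2. A linear model with 4 groups was fitted to all arrays and probesets with limma 3.58.1 in R 4.3.3, because the number of arrays limits precision. Comparisons were called at a Benjamini-Hochberg adjusted p under 0.05 and the moderated F test under 0.015. The fit and calls of FGF19 against Mock were tried on simulated arrays with known changes in the FGF19 group only. The other comparisons, the F test and the promoter search were not tried in this way. Symbols were updated through Entrez identifiers to RefSeq on GRCh38.p14, which also gave the promoters; no probe sequence was used.

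Genes named with all arrays were, for each complex, the brightest and that with the smallest F p, the largest changes against Mock (up to 10 each way), and EIF2S1, EIF4E, EIF4G1, EIF4EBP1, EEF1A1 and EEF2; of each further list, 2 genes. The members and lists were chosen with earlier results of these data known. Alternatives were quantile or cyclic loess normalization, 16 added before log2, omitting the dimmest 20 percent of probesets, no moderation, a trended and robust prior, a replicate block, the mean of a gene's probesets, fits of only the groups compared, and leaving out each array.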

Additional observations from a re-analysis of the deposited data

How the results depend on the processing

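Counts of genes called in FGF19 against Mock and in FGF19 + TNFα against TNFα stayed within 1.5 times their values under both normalizations, added signal, the filter on dim probesets and the mean over probesets, with the exceptions given here. Higher genes in FGF19 + TNFα against TNFα numbered 10 after quantile normalization and 11 with a trended and robust prior, against 6. A fit of only FGF19 and Mock gave 4 higher genes in place of 7. Among the 4 groups, 8 genes passed without moderation and 30 with a trended and robust prior, against 17. When 1 array was left out, a group of 1 array was assumed to vary like the others, and the counts ranged from 2 to 7 higher and 10 to 23 lower (FGF19 against Mock), 4 to 7 higher and 8 to 21 lower (FGF19 + TNFα against TNFα), and 0 to 19 (4 groups). No member passed in TNFα against Mock, in FGF19 + TNFα against FGF19 or in the interaction under any alternative that was run. The difference of EIF1 in FGF19 against Mock changed sign to 0.078 after quantile normalization, where it was also not called. The cause was not tested for any of these. The labels give a shared replicate number no common origin. The differences between replicates 1 and 2 correlated between groups at −0.02 to 0.195 over all probesets and at −0.028 to 0.399 over the 58 genes, so the arrays were not treated as paired. With the replicate block, 21 genes were lower and 7 higher in FGF19 against Mock, 19 and 6 in FGF19 + TNFα against TNFα, and 15 differed among the 4 groups. Quantile and cyclic loess normalization moved the median of all probesets in FGF19 against Mock to −0.002 and 0.003, and that of the 58 genes to −0.18 in both. Alternatives were not run for the lists of other translation genes. The dim end of the scale, which differed between arrays with and without FGF19, and 2 arrays in each group limit all sizes given here.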
